A study of Mus musculus with 2 samples.

Results

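The genes described here are the mouse zinc finger genes named Zfp plus a number, Zfp36 excepted, that held at least 1 ELAVL2 RIP peak inside the gene body. They were chosen by symbol and by having such a peak in the authors' deposited gene table, with pseudogenes left out, and there were 86 of them among 6158 genes with a peak inside. Together they held 267 peaks, and since 1 peak lay in both Zfp174 and Zfp597 these made 268 pairs of a peak and a gene. The RNA came from newborn (P0) mouse ovary, homogenised from 100 ovaries. No strain, genotype or treatment is given in the sources used here. The ELAVL2 RIP sample was the RNA brought down by an antibody against ELAVL2, an RNA-binding protein of the Hu family, and the input sample was RNA from 5% of the same kind of lysate. There was 1 sample of each, each pooled from 3 sequencing lanes, and no control pulldown was analysed here, so nothing below could be checked against replicates and no test was made between conditions.

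Most numbered Zfp genes encode proteins with arrays of C2H2 zinc fingers, small folds held by a zinc ion that read DNA bases. Many also carry a KRAB domain, which recruits the corepressor TRIM28 and, through it, the histone methyltransferase SETDB1 and HP1 proteins to silence retroelements and imprinted loci. A smaller number act as transcription cofactors, ubiquitin or SUMO ligases, or RNA-binding proteins. The family grew by tandem duplication, so many members lie in arrays and resemble each other in sequence. ELAVL proteins bind uridine-rich and AU-rich RNA, often near the 3' end of mRNAs.

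The peak caller kept 1 tag for each position and strand. This left 13787676 of 172711531 tags from the RIP and 19479946 of 210270620 from the input. It also sets an upper limit on the pileup, and the largest over all genes was 97. For each peak the files give the RIP pileup (tags overlapping the summit) and the fold enrichment, and from these the input level was computed, which is the peak caller's scaled local background in tags rather than a count made at the summit. Of the oocyte markers checked, Ddx4, Dazl, Kit, Sycp3 and Hormad1 held peaks and Figla and Nobox did not (5 of 7). Peaks were also inside 1 of 4 granulosa, 1 of 3 stromal, 1 of 3 endothelial and 0 of 3 blood and immune markers. Over all protein-coding genes 23.4% held a peak inside, and the marker lists are too short to set against that share. Peaks show enrichment over input and not expression, so these counts do not measure the makeup of the tissue. In whole ovaries, the number of cells that carry an RNA and the amount per cell cannot be told apart.

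Of the 366 protein-coding numbered Zfp genes in the reference gene table, 85 held a peak inside (23.2%). The remaining member, Zfp783, is a long noncoding RNA gene in the reference. Over all protein-coding genes of that table the share was 23.4% (5128 of 21900). Older gene names were matched to current symbols for this background share, but not for the zinc finger families. The shares are therefore not counted alike, and their closeness is not read as a result. By reference gene bodies, 107 numbered Zfp genes held a peak. Numbered Zbtb genes, another zinc finger family, held peaks in 20 of 35 (57.1%). Having a peak was the criterion of selection, so these shares only describe the lists.

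The strongest peak of the group by -log10 q, the significance the authors' peak caller assigned after correction over the genome, lay in Zfp169 (ENSMUSG00000050954, chromosome 13, 48487647 to 48513451, mm10). At 48487699 to 48488340 the RIP pileup was 48 and the input level 7.08, which gave a 6.07-fold enrichment with a -log10 q of 18.02. The summit was 467 bp from the annotated 3' end of the gene. A second peak, 1087 bp from that end, had a RIP pileup of 17 over an input level of 1.70 (fold 6.67), and the third, 7219 bp from it, had 7 over 0.708 (fold 4.68). Of its 3 peaks, 2 lay less than 5 kb from that end, and the one farther away had the lowest pileup. That end is the one in the deposited table. The reference body runs on past it to 48480763, so all 3 peaks lie farther from the reference 3' end.

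Zfp521 (chromosome 18, 286 kb), a cofactor of haematopoietic, neural and mesenchymal differentiation, had the largest deposited fold of any member. That rank rests on the value of 1 that the deposited fold adds to both samples: without it Zfp644 (29.8), Zfp568 (18.8) and Zfp407 (16.3) stood above Zfp521 (14.8). Its 4 peaks had RIP pileups of 21, 20, 12 and 9 over input levels of 1.42, 1.73, 2.12 and 1.27, with folds of 9.11, 7.68, 4.16 and 4.41. All 4 summits lay close to each other, from 45.9% to 46.4% of the way along the gene, and the best was 153031 bp from the 3' end. The 4 called peaks in Zfp521 thus lay in a short stretch in the middle of a long gene. The paralogue Zfp423 held no peak inside and was only the nearest gene to a peak 76076 bp upstream.

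Zfp111 (chromosome 7, 24193947 to 24211443) had 7 peaks within 1882 bp, all in the last 5 kb of the gene. Their RIP pileups were 13 to 21 and their input levels 1.98 to 3.54, and the best fold was 7.38 at 24195919 to 24196180, with a pileup of 21 over 1.98. Zfp398 (chromosome 6, 47835661 to 47873537) had 10 peaks over 3277 bp at its 3' end. There the RIP pileups were 13 to 34, the input levels 2.57 to 9.20 and the folds 2.94 to 5.51. In both genes every peak stood within 5 kb of the annotated 3' end, in runs of short peaks separated by gaps.

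In Zfp383, Zfp709, Zfp655, Zfp770 and Zfp710 the strongest peak by -log10 q stood at input levels from 5.84 to 13.4. In Zfp383 it had a RIP pileup of 35 over 5.84 (fold 5.26, -log10 q 11.5), 100 bp from the 3' end. In Zfp709 it had 38 over 7.08 (fold 4.83, -log10 q 11.3), and in Zfp655 52 over 13.4 (fold 3.67, -log10 q 10.8). Zfp770 had 37 over 7.54 (fold 4.45, -log10 q 9.97) and Zfp710 had 37 over 7.79 (fold 4.33, -log10 q 9.59). By the deposited gene bodies the Zfp655 peak lay 9600 bp from the 3' end and that of Zfp709 3375 bp. Those of Zfp770 and Zfp710 lay 178 and 1544 bp from it. The reference bodies of Zfp709 and Zfp710 end closer to these peaks, at 71892565 and 80092751. Zfp748 and Zfp174 entered by fold at a pileup of at least 20, with 5.48 (20 over 2.83) and 5.07 (22 over 3.54).

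**Figure D1:**
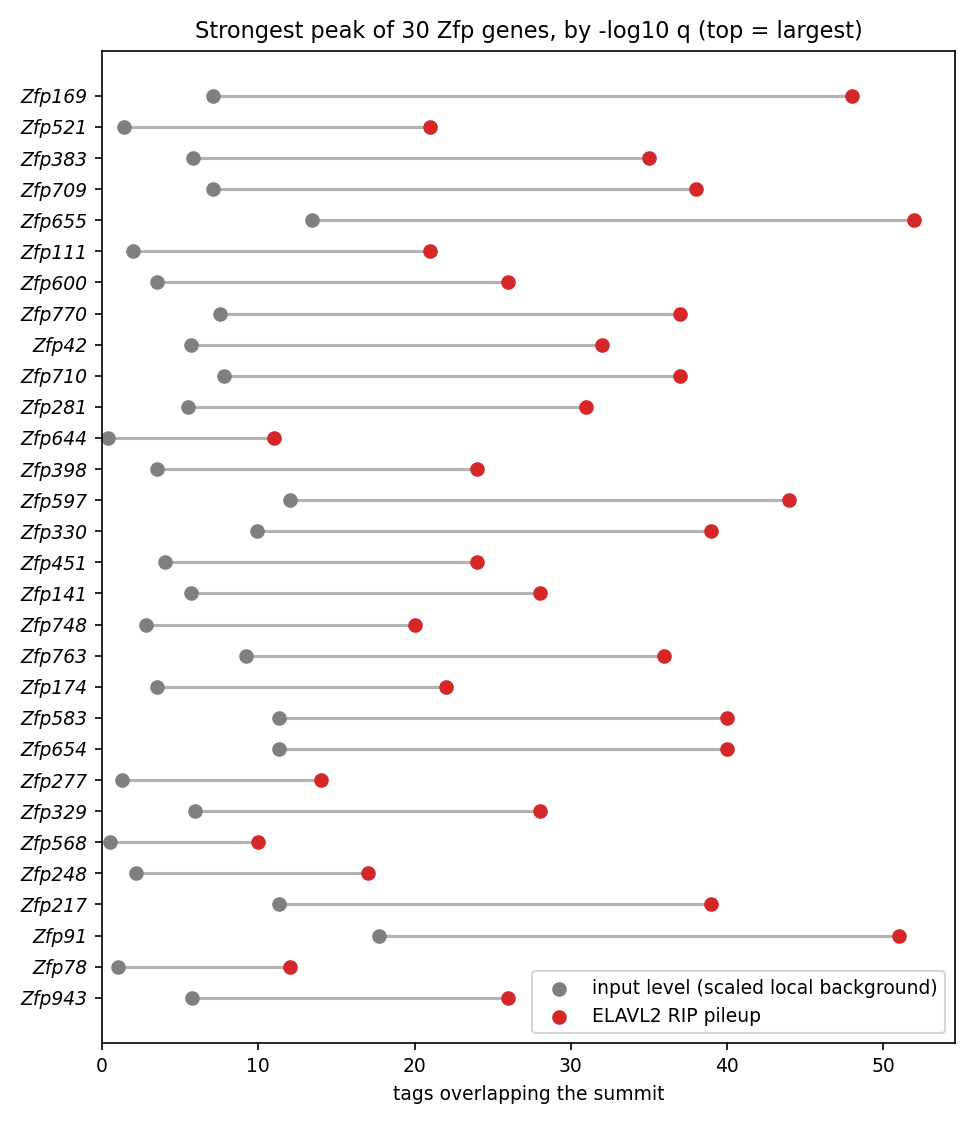
RIP pileup (red, tags overlapping the summit) and input level (grey, scaled local background in tags) at each gene's peak with the largest -log10 q. Shown are the 30 numbered Zfp genes that rank highest by -log10 q. Every red point lies to the right of its grey point, as peak calling requires, and Zfp521, Zfp644 and Zfp568 have small pileups over very low input while Zfp655 and Zfp91 have pileups of 52 and 51 over input levels of 13.4 and 17.7.

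The folds of the 86 members had a median best value of 3.77 (quartiles 2.74 and 4.99, range 1.77 to 9.11). Over all 6158 genes with a peak inside the median was 4.38, and over the 20 Zbtb genes 4.92. A best fold of at least 5 was reached by 22 of 86 members (25.6%), against 39.9% of all such genes. A peak with a pileup of at least 20 was present in 68 of 86 (79.1%), against 70.6% of all. Members thus had somewhat lower best folds, at the same median pileup of 28. The input level at their peaks, whose median was 8.67 against 7.79 over all genes, was at most 1 input tag in 5.97% of pairs (95% interval by the exact binomial method 3.45 to 9.51, for counting error alone) against 12.9% (12.4 to 13.3).

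Fold and input level moved together in opposite directions across the members. Across members the Spearman correlation of the best fold with the input level at the same peak was -0.88 (n = 86 genes of the same 2 libraries), and input level is part of the fold, so this is a description. In the 89 pairs with the lowest input levels (0.369 to 5.49) the median fold was 4.66 at a median pileup of 14. In the next 90 pairs the median fold was 2.99 at a pileup of 28. In the 89 pairs with the highest levels (12.7 to 31.9) it was 2.24 at 39. The pileup has an upper limit, as 1 tag was kept per position and strand. Its effect on folds at high input levels was not tested. For 31 of 86 members the peak with the best fold had a pileup under 20, and 18 members had no peak reaching 20.

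**Figure D2:**
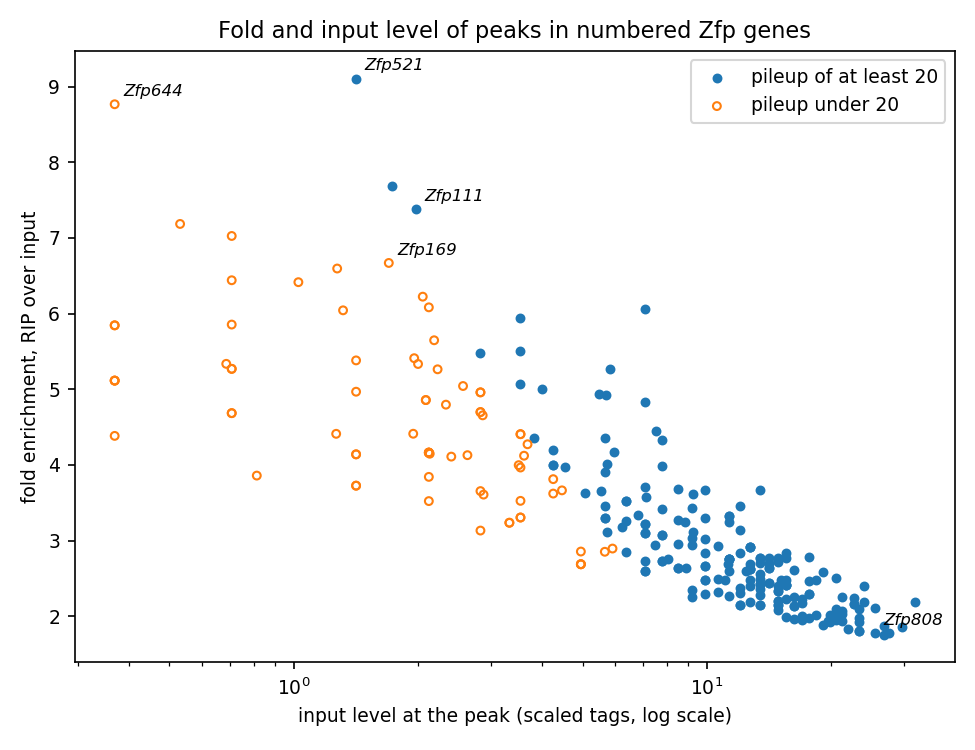
Fold enrichment against input level (scaled tags, log axis) for the 268 pairs of a peak and a numbered Zfp gene; filled points have a pileup of at least 20 and open points a lower one. Folds above 5 occur mostly where input is low, and the Zfp521 and Zfp111 peaks reach 9.11 and 7.38 at a pileup of 21 each, while the Zfp808 peak has a fold of 1.77 at an input level of 25.5.

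Among numbered Zfp genes known from stem cells, 4 of 6 held peaks, beside 23.4% of all protein-coding genes and 23.2% of the family. Zfp42 (REX1), a marker of pluripotent cells (chromosome 8, 43295068 to 43307009), had 4. The one at 43295264 to 43295356, 267 bp from the 3' end, had a RIP pileup of 32 over an input level of 5.70 (fold 4.93, -log10 q 9.83). Beside it lay peaks with 36 over 14.9 (fold 2.33) and 19 over 5.91 (fold 2.89), and the fourth, near the start of the gene at 10.9% of its length, had 18 over 2.12 (fold 6.08). The fold in Zfp42 was therefore larger near its start than at its 3' end, but the pileup was larger at the 3' end.

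Zfp281, a regulator of the exit from pluripotency and one of the shortest members (5.15 kb), held 5 peaks. From the most 5' to the most 3' of these, RIP pileups were 31, 29, 41, 44 and 32 over input levels of 5.49, 7.08, 14.2, 21.2 and 14.9, and folds were 4.93, 3.71, 2.77, 2.02 and 2.08. The pileup thus stayed between 29 and 44 along the gene, while the fold was highest at the peak with the lowest input level. Zfp217, a corepressor-associated oncogene, had 3 peaks (best 39 over 11.3, fold 3.25), and Zfp706 had 4 (best 47 over 18.3, fold 2.48). Zfp143 and Zfp462 held none.

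Of 6 KRAB zinc finger genes known for imprint or retroelement control, 2 held peaks inside, again beside 23.4% of all protein-coding genes. Zfp568, which represses a placental Igf2 transcript, had 3 peaks with RIP pileups of 6, 12 and 10 over input levels of 0.814, 2.12 and 0.531, and folds of 3.86, 4.16 and 7.19. These lay at 12.9% to 15.1% of its length, 37648 bp or more from the 3' end, and none reached a pileup of 20. Zfp809, a silencer of retroviruses, had 4 peaks between 2329 and 3276 bp from the 3' end of its deposited body. Their RIP pileups were 19, 26, 23 and 32 over 4.46, 7.79, 5.56 and 9.91, with folds of 3.66, 3.07, 3.66 and 3.03. The reference body of Zfp809 ends farther downstream, at 22254117 against 22243197. The imprint guardians Zfp57 and Zfp445 and also Zfp932 held none, and Zfp708 was only the nearest gene in the authors' deposited table to a peak 10673 bp upstream. In the reference annotation that peak lay within Zfp708.

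The chromatin and transcription cofactors held peaks in 6 of 13 genes (23.4% of all protein-coding genes did). Zfp644, a partner of the G9a and GLP histone methyltransferases, had 10 peaks in 2 kinds. Within 1485 bp of its 3' end stood 5 peaks with RIP pileups of 30 to 52 and folds of 1.98 to 2.48. The other 5 lay 9574 to 43077 bp away, with pileups of 6 to 11 over input levels of 0.369 to 1.42 and folds of 3.73 to 8.77. The best fold, 8.77, had a pileup of 11 over 0.369, the genome-wide background. Among its peaks with a pileup of 20 or more, the largest fold was 2.48. All 10 peaks also lay in Gm28039, a longer gene of the same strand, and 2 of them were equal in length, summit offset, pileup and fold to peaks elsewhere, at pileups of 6 and 7 where such equality is common.

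Zfp451, a SUMO ligase, had 8 peaks, each more than 5 kb away from the annotated 3' end. The best had a RIP pileup of 24 over 4.00 (fold 5.00), and the other 7, bunched between 35.0% and 42.1% of the gene's length, had pileups of 24 to 42 and folds of 2.30 to 3.53. Zfp410, a regulator of Chd4, had 3 peaks (best 23 over 6.37, fold 3.26), Zfp516 had 3 (33 over 11.3, fold 2.76), Zfp609 had 1 (45 over 17.7, fold 2.46) and Zfp131 had 4 (36 over 14.2, fold 2.44). At the best peaks of these 4 genes the input level was higher and the fold lower than at the best peak of Zfp451. The other 7 peaks of Zfp451 had input levels of 6.37 to 17.7, in the range of these 4. Zfp592 and Zfp532 were only nearest genes, and Zfp687, Zfp608, Zfp335, Zfp711 and Zfp827 held no peak.

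Of 11 developmental regulators 6 held peaks, Zfp521 among them (over all protein-coding genes, 23.4%). By the deposited gene bodies Zfp407 was the longest member at 462 kb, and it had 5 peaks scattered over 344554 bp. Their RIP pileups were 7, 27, 6, 10 and 6 over 0.708, 12.03, 0.369, 0.708 and 0.369, with folds of 4.68, 2.15, 5.11, 6.44 and 5.11, so the one peak with a pileup over 20 had the lowest fold. The reference body of Zfp407 is 382 kb, with its 3' end at 84207701, and 4 of the 5 peaks lay within it. Its peak of 27 over 12.03, at 84207755 to 84207918, lay next to that reference end. Zfp536, a repressor of neuronal differentiation, had 2 peaks with 18 over 2.83 (fold 4.96) and 9 over 1.42 (fold 4.14). They lay 209 and 7230 bp from the 3' end of its deposited body of 302 kb. The reference body is 456 kb and runs on past that end to 37318023. Zfp91, a ubiquitin ligase, had 7 peaks with pileups of 33 to 51 over input levels of 13.4 to 23.4 and folds of 2.09 to 2.78. Zfp292 had 2 (best 38 over 16.3, fold 2.26) and Zfp148 had 1 (10 over 2.12, fold 3.52), while Zfp503, Zfp703, Zfp704 and Zfp318 held none.

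Of 7 genes whose products act on RNA, ribosomes or the spindle, 2 held peaks, near the share of 23.4% over all protein-coding genes. Zfp106, an RNA-binding protein needed in motor neurons, had 5 peaks within 5 kb of its 3' end, with pileups of 30 to 51 over 9.20 to 23.4 and folds of 1.81 to 3.04. Zfp638, a nuclear RNA-binding protein, had 1 peak of 8 over 0.708 (fold 5.27), 45983 bp from its 3' end. Zfp622 was only a nearest gene, and Zfp207, Zfp326, Zfp598 and Zfp830 held no peak. In all, 20 of the 43 genes in these role lists were members, beside 23.2% of the protein-coding family. The lists were short and chosen with earlier results known, so nothing is read from the gap.

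A list of 20 genes held partners of KRAB zinc finger proteins, related heterochromatin genes and also the zinc finger genes Ctcf, Yy1, Zfx and Rest. Of the 20, 17 held peaks (54 in all), those 4 among them, beside 23.4% of all protein-coding genes. The median best fold was 2.86, against 4.38 over all genes with a peak inside. This list too was short and chosen with earlier results known, so nothing is read from the gap. The corepressor gene Trim28 itself held none, and neither did Chd4 or Dnmt3b. Setdb1 had 1 peak (RIP pileup 8 over 0.708, fold 5.27). The HP1 genes Cbx1, Cbx3 and Cbx5 had 2, 4 and 4 peaks with best folds of 2.40, 2.00 and 3.37. Atrx, a chromatin remodeller, had 5 peaks reaching a fold of 5.87 at a RIP pileup of 25, and Zfx and Rest, zinc finger genes outside the numbered series, had 8 each with best folds of 3.60 and 3.37.

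Peaks per member ranged from 1 to 11 with a median of 2, the same median as over all genes with a peak inside. Of the members, 29 had 1 peak, 16 had 2, 23 had 3 or 4, and 18 had 5 or more. The most were in Zfp26 (11), whose peaks had RIP pileups of 22 to 42 over 6.23 to 14.9 and folds of 2.21 to 3.18, all within 3110 bp at its 3' end. Zfp597 had 10 (folds 2.23 to 3.63), Zfp800 8 (2.69 to 4.70) and Zfp113 7 (2.25 to 4.35). The number of peaks did not follow gene length among members (Spearman correlation -0.03 over 86 genes, a description): Zfp281 at 5.15 kb and Zfp407 at 462 kb both had 5. Of 57 members with at least 2 peaks, 41 had all of them within 5 kb of each other. Merging peaks less than 1000 bp apart left 120 of the 267.

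**Figure D3:**
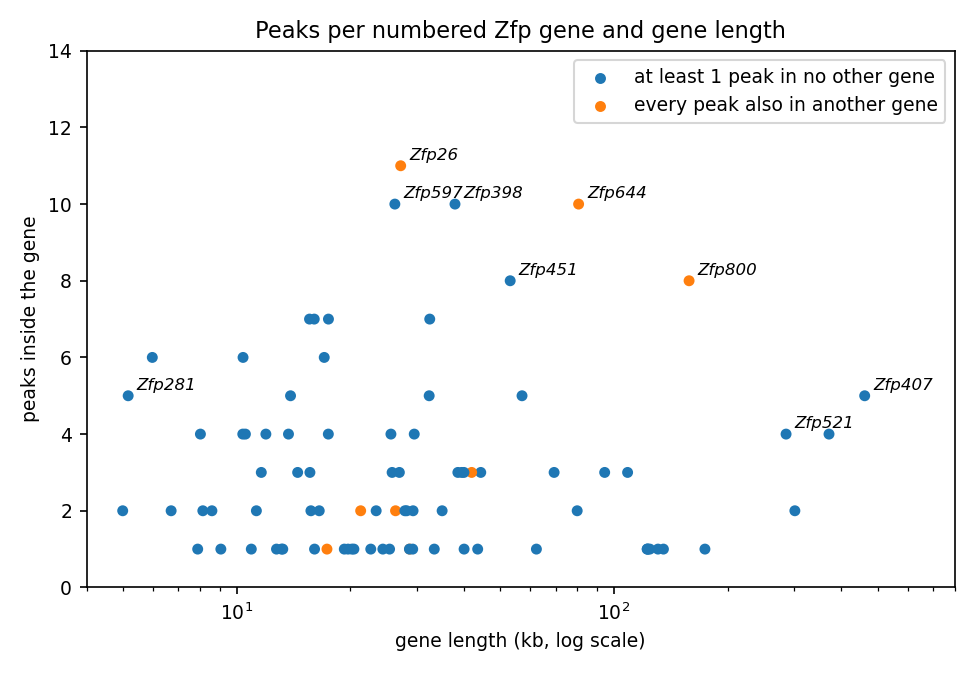
Number of peaks inside each of the 86 numbered Zfp genes against gene length (kb, log axis); orange marks the 8 genes whose every peak also lies in another gene of the table. Genes with 5 or more peaks occur from 5.15 kb (Zfp281) to 462 kb (Zfp407).

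The peaks lay mostly toward the annotated 3' end. Of 268 pairs, 185 (69.0%, exact binomial 95% interval 63.1 to 74.5, counting only) had their summit within 5 kb of it and 126 (47.0%, 40.9 to 53.2) in the last 10% of the gene body. Over all genes these shares were 53.1% (52.5 to 53.8) and 45.1% (44.4 to 45.7). Peaks of 1 gene are not independent, so the intervals are too narrow, and the difference was not tested. Only 4 pairs (1.49%) were in the first 10%, against 5.15% over all genes. The members were also shorter, with a median of 26.0 kb against 38.7 kb. In genes of up to 20 kb the share within 5 kb of the end was 84.0% in members and 83.4% over all genes, from 20 to 100 kb it was 67.4% against 52.4%, and above 100 kb 27.3% against 31.6%. The gap was widest in the middle length class, and these differences were not tested. All these distances use the gene ends of the deposited table. For Zfp169, Zfp26, Zfp536, Zfp800 and Zfp809, among others, the reference body runs on past that 3' end. For Zfp664, Zfp229, Zfp697 and Zfp407 it stops short of that end, close to a peak. With reference bodies, 45.1% of summits in numbered Zfp genes lay in the last 10%. Distances in bp from the reference ends were not analysed here.

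**Figure D4:**
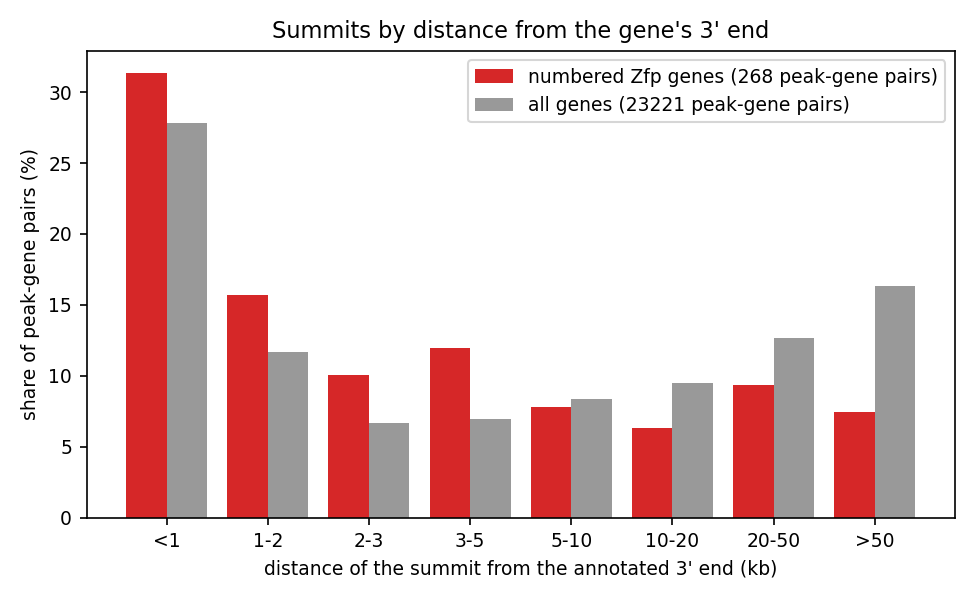
Share of peak and gene pairs (%) by distance of the summit from the annotated 3' end (kb), for numbered Zfp genes (red, 268 pairs) and all genes with a peak inside (grey, 23221 pairs). In members 31.3% lay less than 1 kb from the end and 7.46% more than 50 kb from it, against 27.8% and 16.3% over all genes.

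By gene, 58 of 86 members had at least 1 peak within 5 kb of the 3' end, 46 had all their peaks there and 28 had none there. These counts use the deposited ends. Zfp664, Zfp229, Zfp697 and Zfp407 are among the 28, although their reference bodies end close to a peak. In Zfp664, for example, the reference body ends at 124888630 and a peak lay at 124888455 to 124888609. Counts from the reference ends were not made. The position differed with the input level at the peak. Of the 89 pairs with the lowest input levels 49.4% were within 5 kb of the end, and of the next 90 and the 89 with the highest levels 80.0% and 77.5%. Members with their best peak far from the end and a low input level included Zfp521, Zfp568, Zfp407 and Zfp638, described above.

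Only 1 of the 267 peaks touched a promoter window of the RefSeq table (250 bases before to 50 after each annotated start; 71 of 86 members had one, and 105 of 28179 peaks of the gene table touched any). It lay at the start of Zfp330 (chromosome 8, 82774049 to 82774098, minus strand) with a RIP pileup of 15 over an input level of 3.54, which gave a 3.53-fold enrichment with a -log10 q of 2.85. The last 30 bases of that window (GRCm38.p6, chromosome 8, 82774096 to 82774125, minus strand), all downstream of the start, are shown because they are the only sequence given here that a member's peak reaches. Capitals mark the 3 bases shared with the peak.
Zfp330: ttggaaacgggctgcttctgccgttctAGC
Elsewhere in Zfp330 were 3 further peaks, the best with 39 over 9.91 (fold 3.67, -log10 q 8.03) at 3090 bp from the 3' end.

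Members were spread over 19 chromosomes, with 18 on chromosome 7, where 89 protein-coding numbered Zfp genes lie, 8 of 41 on chromosome 17 and 8 of 32 on chromosome 13. Over the protein-coding family the share was 23.2%. On chromosome 16 all 5 held a peak, 3 of them in 1 array, and on chromosome 10 none of 5 did. The reference body of Zfp174 also covers all 10 peaks of Zfp597. Nothing is read from counts this small. Genes chained at gaps of at most 100 kb formed 52 arrays holding 212 of the 366 protein-coding family genes, and 37 of these 212 were members, against 48 of the 154 genes that stood alone. These counts use the deposited table. By reference bodies 23 further numbered Zfp genes held a peak, and most of them lay in arrays. Zfp943, in an array, and Zfp652, which stood alone, held no peak by those bodies. The gap between array genes and lone genes thus depended in part on the annotation, and it was not tested. Of 15 arrays with at least 5 genes, 5 held no member, but in 3 of these 5 a gene held a peak within its reference body. The median length was 27.9 kb for members in the reference, 21.3 kb for genes that were only nearest to a peak and 15.8 kb for genes without an entry in the gene table.

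The array with most members was on chromosome 7 (29768552 to 30169775), where 4 of 15 genes held peaks: Zfp84, Zfp27, Zfp383 and Zfp568. Their best folds were 4.80, 4.14, 5.26 and 7.19, at RIP pileups of 15, 9, 35 and 10 over input levels of 2.34, 1.42, 5.84 and 0.531. On chromosome 16 (3744099 to 3884377) all 3 genes of an array did, Zfp263 (best fold 2.47), Zfp174 (5.07) and Zfp597 (3.63). On chromosome 13 (67038594 to 67553152) Zfp953, Zfp58 and Zfp748 did (3.84, 3.53 and 6.04) and 11 others did not, although 2 of the 11, Zfp708 and Zfp595, held peaks within their reference bodies. Which neighbours in an array count as holding a peak thus depended in part on the annotation.

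For 49 of the 267 peaks another gene of the table covered the same place, and for 8 members this held for every peak: Zfp26, Zfp266, Zfp384, Zfp600, Zfp616, Zfp644, Zfp800 and Zfp953. The called peaks carry no strand, so RNA of the 2 genes cannot be told apart. All 11 peaks of Zfp26 and both of Zfp266 also lay in Gm26733, on the opposite strand, and all 8 of Zfp800 in 6530409C15Rik, also opposite. Of the 10 peaks of Zfp597, 6 lay in Gm26675, again opposite. Such sharing was near the background: 81.3% of member pairs had a peak in only 1 gene, against 83.4% over all genes.

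Zfp600 lies among similar genes. Its best peak (chromosome 4, 146172619 to 146172723, RIP pileup 26 over 3.54, fold 5.95) was equal in length, summit offset, pileup and fold to 2 other peaks on chromosome 4, and peaks of the same fold lay in the reference bodies of Zfp978 and Zfp980. The gene of origin of these reads is therefore uncertain, and whether reads were placed at several copies was not tested. Of all member peaks, 7 had such an equal elsewhere, and this was the only one with a pileup of at least 20.

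The members just inside the called threshold, a q of 0.05, were Zfp367 (-log10 q 1.34, RIP pileup 37 over 19.1, fold 1.89), Zfp808 (1.35, 46 over 25.5, fold 1.77), Zfp39 (1.70, 30 over 13.4, fold 2.15), Zfp937 (1.73, 29 over 12.7, fold 2.18) and Zfp783 (1.87, 8 over 1.42, fold 3.73). Just outside the gene body criterion were 35 numbered Zfp genes that were only nearest to a peak. The closest of these were Zfp251, with a peak 92 bp downstream (47 over 16.3, fold 2.78), Zfp85 at 406 bp (15 over 4.25, fold 3.05), Zfp563 at 531 bp (17 over 3.96, fold 3.63) and Zfp317 at 558 bp downstream (36 over 10.6, fold 3.19). With reference gene bodies in place of those of the deposited table, Zfp85, Zfp563 and Zfp317 each held a peak.

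The 46 members not named by any of the ranks or role lists had 1 to 6 peaks (median 2), best folds of 1.86 to 7.03 (median 3.66) and best -log10 q of 1.87 to 8.03. Among them, singled out after its values were seen, Zfp541, a gene of meiotic germ cells, had 1 peak with a RIP pileup of 7 over the background level of 0.369 (fold 5.85), 11417 bp from its 3' end.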

How the data were processed

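One ELAVL2 RIP and 1 input sample were compared. The submitters' processing notes list TopHat2 2.0.8b, MACS2 2.1.0.20140616, CASAVA 1.8.2, FastQC 0.11.2 and the build mm10. The authors, per the file headers, pooled 3 lanes per sample and called peaks with 1 tag of 36 bases kept per position and strand, extended to 50 bp, at a q cutoff of 0.05. The deposited signal is the RIP pileup at the summit, the deposited fold is the ratio of RIP to local input after scaling, 1 being added to both, and the deposited -log10 p and -log10 q are the peak caller's.

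Exact repeats (42176 of 85730 entries) were dropped from the deposited gene table. The input level is (pileup + 1) / fold - 1. A Poisson p recomputed from it differed from the deposited -log10 p by at most 5.62e-05. Gene names and reference bodies came from the GRCm38.p6 table, which all 86 members matched. Named genes were the top 10 members by fold among peaks with a pileup of 20 or more, the top 10 by -log10 q, the top 10 by number of peaks, the 5 with the smallest best -log10 q, and role list members with a peak. Members and lists were chosen with earlier results of these data known. The planned description by KRAB box and finger number, and sequences of the peaks, were not analysed here. Values were computed with pandas 2.3.3 and numpy 2.4.6 under Python 3.11.15, intervals with scipy 1.17.1 and figures with matplotlib 3.10.9, and positions were tested on simulated data.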

Additional observations from a re-analysis of the deposited data

How the results depend on the processing

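The 86 members, 267 peaks, median best fold of 3.77 and 47.0% of summits in the last 10% of the gene body were recomputed under each alternative. With peaks paired with exactly 1 gene, 47 members, 133 peaks and a share of 32.3% were left. A fold of at least 3 left 130 peaks and a share of 40.5%, and merging within 1000 bp left 120 peaks. The last 20% of the body held 64.9% of summits. The other recomputed values of these 4 results stayed within 1.5 times, or for the share within its counting interval: members ranged from 62 (fold of at least 3) to 107 (reference bodies, which added 23 genes and kept 84 members), and the median fold from 3.22 (pileup of at least 20) to 4.65 (no pseudocount). Without the pseudocount the best fold of 5 of 40 named members left its counting interval: Zfp644 (8.77 to 29.8), Zfp568 (7.19 to 18.8), Zfp407 (6.44 to 16.3), Zfp521 (9.11 to 14.8) and Zfp638 (5.27 to 11.3). Of 40 named members, 18 had no peak paired with exactly 1 gene, 10 none with a fold of at least 3, 5 none with a pileup of at least 20, and 4 none that overlapped only 1 gene. No paired analysis was possible because there was 1 sample per group. In the 89 pairs with the lowest input levels the median pileup was 14, so folds there rest on few tags.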

Other observations

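With the reference gene bodies, 23 numbered Zfp genes held a peak that the authors' deposited table does not place inside a gene of that symbol. Zfp993, Zfp979 and Zfp978, on chromosome 4 as Zfp600 is, held 7, 5 and 7 such peaks, with best folds of 2.52, 4.05 and 5.95 and highest RIP pileups of 61, 61 and 57. In the deposited table these peaks lie in clone-named genes such as Gm13237, 2610305D13Rik and C230088H06Rik. Whether some of these are older names of the same genes was not analysed here, so the difference can be one of naming alone. Zfp595 held 4 (best fold 4.66), placed in Gm28044 and Zfp953, and Zfp442 and Zfp72 held 3 each (4.65 and 4.99). Zfp640 held 1, enriched 7.76-fold at a RIP pileup of 25, which is 1803 bp upstream of its body in the deposited table, and Zfp764 held 1 with a pileup of 79 (fold 2.33), above the 71 that was the highest pileup in any member.

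In the other direction, Zfp652 and Zfp943 had no peak within their reference bodies, which are 15.6 and 31.8 kb long against 122 and 109 kb in the deposited table, and for Zfp697 1 of 4 peaks lay within a reference body of 49.99 kb against 371 kb.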
